A study of Mus musculus with 6 samples.

Results

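Collagen chain genes encode the polypeptides from which the collagens of the extracellular matrix are assembled, and every such gene of the deposited count table was followed here in aortas of mice with and without soluble ST2. Members were all protein-coding genes whose symbol is Col, a number, a and a number. The rule gave 44 of the 56748 genes in the table and used no measured value. By the usual structural classes 11 were fibrillar, 9 belonged to the basement membrane and its margin, 9 were FACITs (collagens that attach to fibrils), 6 formed beaded filaments, 4 were transmembrane, 3 formed networks and 2 fell outside these classes.

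The study addresses the effect of soluble ST2 on aortic disease. Soluble ST2 is the secreted form of the interleukin-33 receptor, encoded by Il1rl1. All mice were 6 months old, were labelled as lacking apolipoprotein E (ApoE-KO) and had received angiotensin II from an osmotic minipump for 28 days before the aorta was taken for bulk RNA sequencing. The groups were 3 wild-type littermates (called WT, ApoE-KO alone) and 3 sST2-knockout littermates (called sST2-KO, ApoE-KO and sST2-KO). The labels do not describe the sST2 allele, so how it was made, and what it does to the membrane form of the receptor, cannot be given here. There was no group without angiotensin II. Values of single libraries are always given in the order of replicates 1, 2 and 3.

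Each collagen molecule is a trimer of chains wound into a triple helix of repeating glycine triplets. In the artery wall, types I and III form the fibrils that bear load in adventitia and media, with type V inside the fibrils, while type IV forms the sheet of the basement membrane under endothelium and around smooth muscle cells. Type VI links cells to fibrils, type VIII forms short-chain networks in remodelling vessels, and FACITs such as types XII and XIV coat fibril surfaces.

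Libraries held 15615658 to 17988552 counts, and 16377 genes passed the low-count filter and were tested. Il1rl1 itself had 2.81, 9.49 and 4.35 CPM (counts scaled to library size) in the WT aortas, against 2.39, 2.82 and 4.86 CPM with sST2-KO. These groups overlap, and gene counts add the soluble and the membrane form. Smooth muscle markers, summed over 8 genes, were present in every library at 3106 to 10731 CPM. The library of sST2-KO replicate 2 also held airway epithelial transcripts (34482 CPM summed over 10 markers, at most 36.6 CPM elsewhere). That of WT replicate 3 held hepatocyte transcripts (9814 CPM over 8 markers, at most 14.8 CPM elsewhere). The mitochondrial share of counts was 37.8% for WT replicate 2, 7.08% for sST2-KO replicate 2 and between 18.4% and 23.7% elsewhere. EdgeR's quasi-likelihood test called 0 of all genes (0% of those tested) and 0 collagen genes at an adjusted p under 0.05, with a lowest adjusted p of 0.264 over all genes. DESeq2 called 5 collagen genes lower and 1 higher in sST2-KO, where it called 1.60% and 0.406% of all genes.

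Levels are given as CPM, scaled by TMM (a correction for library composition), per kilobase of the deposited gene length, so that genes of different length can be set side by side. Ranks, class shares and the size of ratios between genes depend on these lengths, such as 4380 bases for Col6a1 and 8326 bases for Col6a2. They may differ from the lengths of the transcripts present. Differences between the groups in 1 gene do not depend on its length. On this scale 3 genes averaged 100 or more over the 6 libraries: Col3a1, Col1a1 and Col1a2, the chains of types III and I. A further 14 lay between 10 and 100, among them the chains Col4a1 and Col4a2, Col6a1 to Col6a3, Col5a1, Col5a2, Col14a1, Col15a1 and Col18a1. There were 11 genes between 1 and 10, 11 between 0.1 and 1, and 5 under 0.1. The collagen genes together took 1.26%, 1.11% and 1.30% of all counts in the WT aortas, against 0.980%, 0.821% and 0.740% in the sST2-KO aortas. Summed per length, they reached 1340, 1682 and 1472 CPM per kb in WT and 1223, 883 and 944 CPM per kb in sST2-KO. Every sST2-KO library lay below every WT library, with a difference of -0.57 in mean log2 (exact two-sided permutation test, p = 0.1, the smallest that 3 against 3 can give). Without Col3a1 the difference was -0.39 and the groups overlapped (exact p = 0.2).

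**Figure D1:**
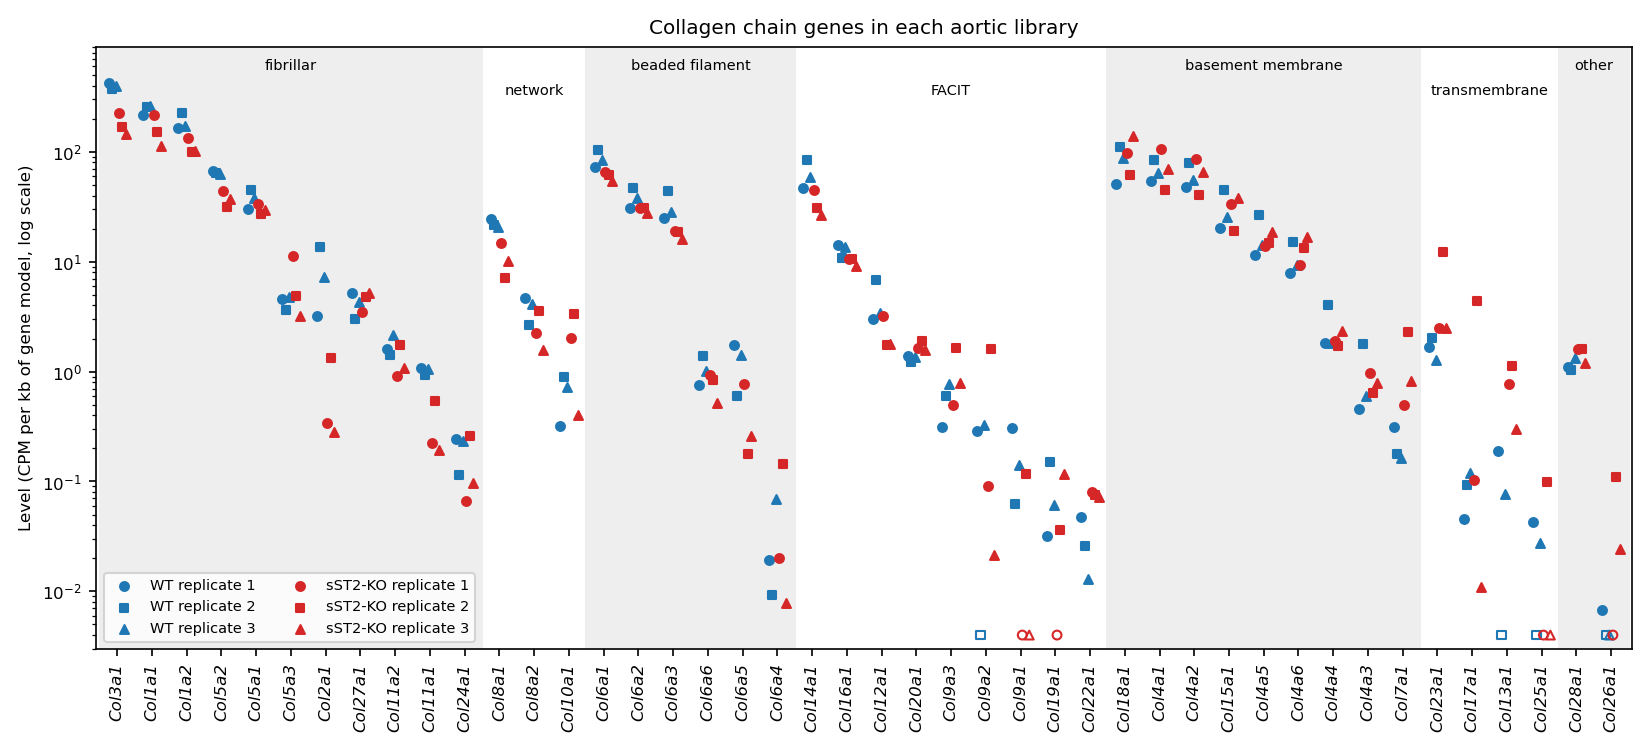
Level of each of the 44 collagen chain genes in every library, in CPM per kb of gene model on a log axis, ordered by class and by mean level (blue, WT; red, sST2-KO; shapes, replicates). Open symbols at the lower edge are libraries with 0 counts. The 3 red points of Col3a1, Col5a2, Col8a1 and Col2a1 lie below all blue points, and sST2-KO replicate 2 stands above the other libraries for Col7a1, Col17a1 and Col23a1.

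Of the 44 genes, 40 passed the filter and were tested. Col6a4, Col19a1, Col25a1 and Col26a1 were not, with 22 to 43 counts over all 6 libraries, and their groups overlapped. Log2 changes, sST2-KO relative to WT, were negative for 23 of the 40 (57.5%, against 46.5% of all tested genes) and had a median of -0.34, where all tested genes had a median of 0.042. Without WT replicate 2 the median of the same genes was -0.15. All 3 sST2-KO libraries lay below all 3 WT libraries for 11 of the 40 (27.5%, against 10.0% of all tested genes) and above them for 5 (12.5%, against 9.09%). At an unadjusted p under 0.05 there were 11 lower and 3 higher genes (27.5% and 7.5%, against 5.95% and 5.08%). The filter can favour genes that are high in 1 group: Col22a1 reached its cutoff in sST2-KO libraries alone. These counts therefore describe the genes that passed.

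Fibrillar genes had negative log2 changes for 9 of 11 (46.5% of all tested genes were negative), with a median of -0.60. For 5 of 11 the groups did not overlap, all of them lower in sST2-KO (10.0% of all tested genes). With WT replicate 3 and sST2-KO replicate 2 both left out, 9 of 11 were again negative and the median was -0.70. The class sum was 914, 987 and 954 CPM per kb in WT and 672, 489 and 436 CPM per kb in sST2-KO.

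Col3a1 (ENSMUSG00000026043, mm39 chromosome 1, 45350698 to 45388866), the single chain of type III collagen, was the most abundant member. It had 422, 372 and 401 CPM per kb in WT and 227, 167 and 144 CPM per kb in sST2-KO. The lowest WT library was thus well above the highest sST2-KO library. The log2 change was -1.15 (edgeR adjusted p = 0.386; SE 0.30; DESeq2 adjusted p = 0.000432), and it ranged from -1.36 to -1.02 as single libraries were left out.

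The chains of type I collagen differed less from WT. Col1a2 (chromosome 6, 4504814 to 4541544) had 165, 225 and 173 CPM per kb in WT and 135, 98.9 and 102 CPM per kb in sST2-KO, a log2 change of -0.75 (edgeR adjusted p = 0.443, SE 0.28) with no overlap. Col1a1 (chromosome 11, 94827050 to 94843868) had 214, 257 and 259 CPM per kb in WT and 216, 151 and 113 CPM per kb in sST2-KO, a log2 change of -0.60 (edgeR adjusted p = 0.497, SE 0.31). For Col1a1 the groups overlapped, since sST2-KO replicate 1 was above WT replicate 1. Neither chain was called by DESeq2.

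Type V chains, which set the width of type I fibrils, were unequal. Col5a2 (chromosome 1, 45413481 to 45542442) had 67.2, 64.8 and 62.9 CPM per kb in WT and 44.4, 31.2 and 37.2 CPM per kb in sST2-KO, with no overlap. Its log2 change was -0.79 (edgeR adjusted p = 0.411; SE 0.22; DESeq2 adjusted p = 0.0133). Its partner Col5a1 had 30.3, 45.2 and 37.8 CPM per kb in WT and 33.8, 27.0 and 29.5 CPM per kb in sST2-KO, and the groups overlapped. Col5a3, a minor chain, had a positive log2 change of 0.58 (SE 0.44) with 11.3 CPM per kb in sST2-KO replicate 1 and 3.23 to 4.88 CPM per kb elsewhere. Without that library its log2 change was -0.092.

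Among the fibrillar genes, the most negative log2 changes belonged to Col2a1 and Col11a1, chains known mainly from cartilage, at low levels. Col2a1 (chromosome 15, 97873483 to 97902576), the chain of type II collagen, had 536, 1586 and 1125 counts in WT and 55, 250 and 39 counts in sST2-KO. Its levels were 3.20, 13.7 and 7.26 CPM per kb against 0.338, 1.34 and 0.281 CPM per kb, with no overlap between the groups. The log2 change was -3.61 (edgeR adjusted p = 0.339; SE 0.79; DESeq2 adjusted p = 5.44e-05). Col11a1 (chromosome 3, 113824189 to 114014367), which nucleates type II fibrils, had 1.07, 0.932 and 1.05 CPM per kb in WT and 0.223, 0.540 and 0.193 CPM per kb in sST2-KO. Its log2 change was -1.67 (edgeR adjusted p = 0.386; SE 0.44; DESeq2 adjusted p = 0.0232), and it was the only collagen gene called by limma-voom with sample quality weights (adjusted p = 0.0459, where 0.214% of all genes were called lower and 0.0488% higher). Col11a2, the other type XI chain with its own gene, had a log2 change of -0.46 (SE 0.34; -0.79 to -0.27 as single libraries were left out) and overlapping groups.

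Cartilage markers went both ways. Of 10 markers 7 were tested, with 4 negative and 3 positive log2 changes. The negative values were -1.61 for Hapln1, -0.84 for Epyc, -0.61 for Sox9 and -0.55 for Comp. The positive values were 3.14 for Chad, 0.61 for Cnmd and 0.52 for Acan. The sum of the 10 markers was 288 to 308 CPM in WT and 213, 519 and 204 CPM in sST2-KO. The proteoglycan Acan was at 28.7 to 33.2 CPM in WT and 23.7, 31.6 and 77.2 CPM in sST2-KO. Comp was lower in all 3 sST2-KO libraries (105 to 168 CPM against 199 to 230 CPM). Matn1, a marker of mature cartilage, had 0 counts in the 3 WT libraries and at most 1.14 CPM in sST2-KO. The gene of the cartilage and bone protein Chad had 4.58 to 21.4 CPM in WT and 1.82 and 1.33 CPM in sST2-KO replicates 1 and 3. In sST2-KO replicate 2, the library with airway transcripts, it had 293 CPM. Without that library the log2 change of Col2a1 was -4.68 and that of Col11a1 -2.29. The part of cartilage cells in these results was not tested. The remaining fibrillar genes, Col27a1 and Col24a1, had log2 changes of 0.10 (SE 0.25) and -0.49 (SE 0.65) with overlapping groups. As single libraries were left out these ranged from -0.10 to 0.30 and from -1.29 to -0.16.

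**Figure D2:**
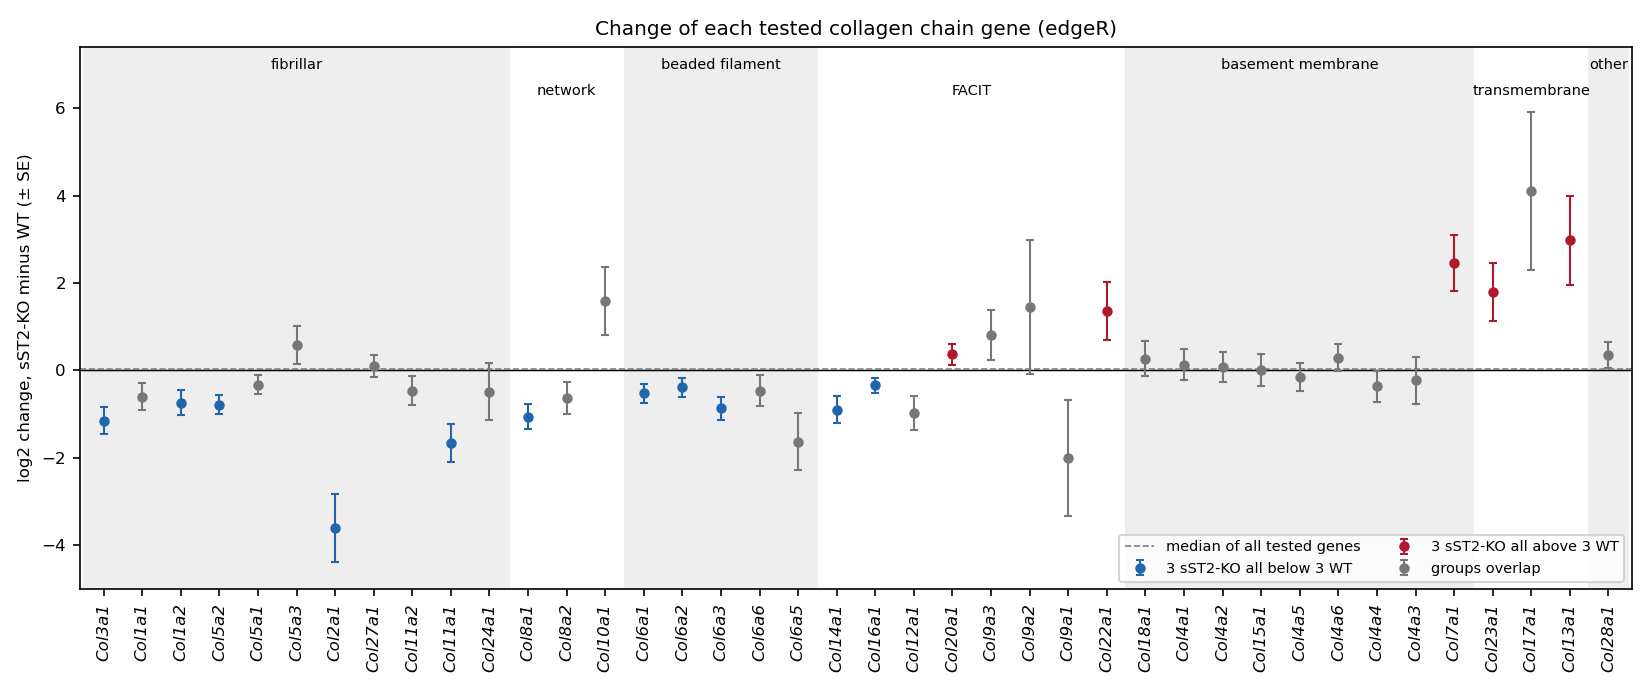
Log2 change (sST2-KO minus WT, edgeR, with SE) of the 40 tested collagen chain genes, ordered by class and level. Blue marks genes whose 3 sST2-KO libraries all lie below the 3 WT libraries (11 genes), red those all above (5 genes), and grey those that overlap; the dashed line is the median of all tested genes, 0.042.

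Among network-forming chains, Col8a1 (chromosome 16, 57444621 to 57575100), the main chain of type VIII collagen made by vascular cells, was lower in sST2-KO. It had 24.7, 21.7 and 20.7 CPM per kb in WT and 14.9, 7.12 and 10.2 CPM per kb in sST2-KO. The groups did not overlap, with a log2 change of -1.06 (edgeR adjusted p = 0.386; SE 0.28; DESeq2 adjusted p = 0.0414). Its partner Col8a2 had 4.66, 2.68 and 4.14 CPM per kb in WT and 2.25, 3.54 and 1.59 CPM per kb in sST2-KO, which overlap. Col10a1, the type X chain of hypertrophic cartilage, had a positive log2 change of 1.58 (SE 0.77) from 18 to 38 counts in WT and 111, 212 and 19 counts in sST2-KO. Without sST2-KO replicate 2 it was 0.92. Col10a1 lies opposite to Nt5dc1 on the other strand, and the strand setting of the counting is not given in the sources used here, so its counts are uncertain.

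RefSeq promoter windows (250 bases before to 50 after the start, build GRCm38.p6) matched 35 of the 44 genes by symbol, in 38 windows. The 150 bases before the start are shown for 4 of the 11 chains that were lower in sST2-KO without overlap, as the upstream DNA of genes that were lower in the same libraries. No rule chose these 4, so they do not stand for the 11. Capitals mark matches, on either strand and with overlaps allowed, to the CCAAT box (CCAAT or ATTGG), the TATA box (TATAAA or TTTATA) and the GC box (GGGCGG or CCGCCC). Each is written 5′ to 3′ on the strand of its gene. The stretches are chr1:45311388-45311537 on the plus strand for Col3a1, chr6:4505468-4505617 on the plus strand for Col1a2, chr16:57754738-57754887 on the minus strand for Col8a1 and chr3:114030390-114030539 on the plus strand for Col11a1.
Col3a1: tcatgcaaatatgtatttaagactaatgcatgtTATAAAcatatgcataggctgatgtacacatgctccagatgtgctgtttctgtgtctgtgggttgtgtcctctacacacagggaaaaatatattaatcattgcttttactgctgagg
Col1a2: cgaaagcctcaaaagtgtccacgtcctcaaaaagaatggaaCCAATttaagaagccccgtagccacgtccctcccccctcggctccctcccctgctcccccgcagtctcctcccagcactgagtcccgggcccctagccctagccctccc
Col8a1: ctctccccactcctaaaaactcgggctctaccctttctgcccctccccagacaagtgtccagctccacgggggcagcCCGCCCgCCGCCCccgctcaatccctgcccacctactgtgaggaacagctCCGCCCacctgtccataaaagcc
Col11a1: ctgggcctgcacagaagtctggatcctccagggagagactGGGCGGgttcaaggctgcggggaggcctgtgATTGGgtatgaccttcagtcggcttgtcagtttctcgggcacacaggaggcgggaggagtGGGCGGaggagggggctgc

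These 4 genes shared no single motif in the stretch shown. The Col3a1 stretch held 1 TATAAA, starting 117 bases before the start, and neither other motif. Col1a2 held a CCAAT 109 bases before the start, Col8a1 held GC boxes 73, 66 and 23 bases before it, and Col11a1 held GC boxes at 110 and 19 bases and a CCAAT box on the other strand at 79 bases. Over whole 300-base windows, the GC box occurred in 60.5% of the collagen windows and 35.7% of 32851 windows of all genes, CCAAT in 34.2% and 37.4%, and TATAAA in 13.2% and 13.6%. A match is a description of letters, not of a bound site.

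Beaded-filament genes leaned the same way as the fibrillar class. All 5 tested type VI genes lay below 0 in log2 change (median -0.53), and the 3 abundant chains separated the groups (3 of 5, against 10.0% of all tested genes). Col6a1 (chromosome 10, 76544626 to 76562002) had 72.3, 104 and 84.1 CPM per kb in WT and 65.4, 61.3 and 54.1 CPM per kb in sST2-KO, a log2 change of -0.53 (edgeR adjusted p = 0.451, SE 0.22). Col6a2, which joins it in the same trimer, had 31.1, 47.0 and 38.2 CPM per kb in WT and 30.5, 30.7 and 27.6 CPM per kb in sST2-KO. Its gap between the groups was narrow, 31.1 against 30.7 CPM per kb. Col6a3, the long chain whose tail carries a cleaved fragment called endotrophin, showed more: 25.0, 44.1 and 28.1 CPM per kb in WT and 18.9, 18.5 and 16.0 CPM per kb in sST2-KO. Its log2 change was -0.86 (edgeR adjusted p = 0.425, SE 0.27) and it was not called by DESeq2 (adjusted p = 0.0782). For each of these chains WT replicate 2 was the highest library, and without it the log2 changes were -0.40, -0.25 and -0.60. Among the tandem genes on chromosome 9, Col6a5 had a log2 change of -1.63 (SE 0.65; -2.5 without sST2-KO replicate 1) with overlapping groups, Col6a6 one of -0.46 (SE 0.36; -0.24 without WT replicate 2), and Col6a4 had at most 25 counts in a library.

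FACIT genes split. Of 8 tested, 4 had negative and 4 positive log2 changes (46.5% and 53.5% of all tested genes). In each direction 2 separated the groups (25% each, against 10.0% lower and 9.09% higher among all tested genes). Those with negative values included the 3 most abundant. Col14a1 (chromosome 15, 55171146 to 55384199), the chain of the fibril-associated type XIV, had 46.8, 84.8 and 58.9 CPM per kb in WT and 44.5, 31.1 and 26.4 CPM per kb in sST2-KO. Its log2 change was -0.90 (edgeR adjusted p = 0.435, SE 0.31), with no overlap. Col16a1 separated the groups by a small step, with 10.7 to 14.3 CPM per kb in WT and 9.19 to 10.6 CPM per kb in sST2-KO. Col12a1, the chain of the tension-related type XII, had 2.99, 6.86 and 3.45 CPM per kb in WT and 3.19, 1.76 and 1.77 CPM per kb in sST2-KO, which overlap. Its log2 change was -0.98 (edgeR adjusted p = 0.445, SE 0.39), and -0.54 without WT replicate 2. The positive values came from scarce genes. Col20a1 had 1.22 to 1.37 CPM per kb in WT and 1.57 to 1.90 CPM per kb in sST2-KO. Col22a1, which reached the filter's cutoff in sST2-KO libraries alone, had 8, 3 and 2 counts in WT and 13, 14 and 10 counts in sST2-KO. Neither gene was past an unadjusted p of 0.05.

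Type IX chains, which decorate type II fibrils, were near the limit of detection and did not move together. Col9a1 had 28, 4 and 12 counts in WT and 0, 12 and 0 counts in sST2-KO. Col9a2 and Col9a3 were highest in sST2-KO replicate 2, with 100 and 128 counts, against at most 17 and 50 counts in any other library. Without that library the log2 change of Col9a2 went from 1.45 to -1.81 and that of Col9a3 from 0.80 to 0.21.

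Basement membrane genes lay on both sides of 0; how they differ from the fibrillar class was not tested. Of 9 tested, 3 had negative and 6 positive log2 changes (46.5% and 53.5% of all tested genes), with a median of 0.073. Only Col7a1 separated the groups, upward (11.1%, against 9.09% of all tested genes), and its highest library was sST2-KO replicate 2. Col18a1 (chromosome 10, 76888012 to 77002382), the source of the fragment endostatin, had 51.0, 110 and 87.3 CPM per kb in WT and 97.1, 61.9 and 140 CPM per kb in sST2-KO. The chain Col4a1 (chromosome 8, 11248423 to 11362826) had 54.4, 83.6 and 64.3 CPM per kb in WT and 106, 45.0 and 70.2 CPM per kb in sST2-KO. Its trimer partner Col4a2 (chromosome 8, 11362805 to 11499287) had 48.2, 79.1 and 55.1 CPM per kb in WT and 85.9, 40.5 and 65.4 CPM per kb in sST2-KO. In these 3 genes the groups overlapped. Their log2 changes were 0.27 (SE 0.40), 0.13 (SE 0.36) and 0.073 (SE 0.34). The values do not show equal expression: with these SEs, changes of the size of that in Col1a1 could not be told from none. The sign also depended on single libraries: without sST2-KO replicate 1 the log2 changes of Col4a1 and Col4a2 were -0.23 and -0.20, and without sST2-KO replicate 3 that of Col18a1 was -0.059. Without WT replicate 2 all 9 were positive, with a median of 0.38, and with sample quality weights in limma-voom all 9 were positive, with a median of 0.41.

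Endothelial cells rest on this membrane. All 8 endothelial markers had positive log2 changes (53.5% of all tested genes were positive) and none separated the groups. Their sum was 1200, 964 and 1075 CPM in WT and 2025, 753 and 1560 CPM in sST2-KO. In the sST2-KO libraries the order of this sum was that of Col4a1, while in the WT libraries it was the reverse. Adipocyte markers, from the fat around the aorta, summed to 4318, 1391 and 3385 CPM in WT and 6841, 1159 and 9780 CPM in sST2-KO. Their order matched that of Col18a1 in sST2-KO and was the reverse of it in WT. The part of these cells in the basement membrane values was not tested, and in bulk tissue fewer cells of a type and less RNA per cell cannot be told apart.

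The type IV genes lie in head-to-head pairs. In the deposited table Col4a1 and Col4a2 point away from each other and overlap by 22 bases at their 5′ ends, Col4a4 and Col4a3 are 71 bases apart on chromosome 1, and Col4a6 and Col4a5 are 1308 bases apart on chromosome X. The overlap is shown in capitals with 4 bases on each side, from RefSeq's GRCm38.p6 window on the plus strand, chr8:11312801-11312830, because both first exons share it.
Col4a1/Col4a2: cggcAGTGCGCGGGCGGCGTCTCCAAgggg

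The shared letters include the GC box GGGCGG. The ratio of Col4a1 to Col4a2, per length, was 1.13, 1.06 and 1.17 in WT against 1.24, 1.11 and 1.07 in sST2-KO, while the level of Col4a1 itself ranged from 45.0 to 106 CPM per kb. Col4a5 to Col4a6 varied more, with 1.46, 1.78 and 1.51 in WT against 1.49, 1.11 and 1.11 in sST2-KO. Col4a3 and Col4a4, the chains of kidney and lung basement membranes, were at 0.459 to 1.78 and 1.72 to 4.01 CPM per kb with overlapping groups. Col15a1, of the basement membrane margin, had a log2 change of 0.0058 (SE 0.37). Other neighbours were Col3a1 and Col5a2, whose 3′ ends are 24614 bases apart on chromosome 1 with no other protein-coding gene between them; both were lower in all 3 sST2-KO libraries.

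Chains of epithelial and other cell surfaces had the highest positive log2 changes, and for Col17a1, Col23a1 and Col7a1 most counts came from 1 library. Col17a1, the hemidesmosome collagen of basal epithelial cells, had 5, 7 and 12 counts in WT and 11, 529 and 1 counts in sST2-KO. Col23a1 (chromosome 11, 51180747 to 51474745), a transmembrane collagen, had 1.69, 2.02 and 1.28 CPM per kb in WT and 2.51, 12.3 and 2.49 CPM per kb in sST2-KO. Col7a1 (chromosome 9, 108782654 to 108813943), the anchoring fibril chain under stratified epithelia, had 0.316, 0.178 and 0.162 CPM per kb in WT and 0.497, 2.29 and 0.828 CPM per kb in sST2-KO. Col17a1 overlapped, while Col23a1 and Col7a1 separated the groups.

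In all 3 genes the peak was sST2-KO replicate 2. That library held all 10 airway epithelial markers, with 99.0 CPM of the basal cell keratin Krt5 against at most 0.625 CPM elsewhere and 29.6 CPM of Trp63 against at most 3.20 CPM. The sum of the Schwann cell markers was higher there as well, at 850 CPM against 226 to 360 CPM in the other libraries. Among these markers Pmp22 was not highest there, with 247 CPM against 297 CPM in WT replicate 2. Without sST2-KO replicate 2 the log2 change of Col7a1 was 1.59 in place of 2.46 (SE 0.64), that of Col23a1 0.59 in place of 1.80 (SE 0.66), and Col17a1 did not pass the filter. DESeq2 called Col7a1 with all libraries (adjusted p = 0.0105). The part of airway and Schwann cells in the collagen values of sST2-KO replicate 2 was not tested. Col13a1, a transmembrane collagen of neuromuscular junctions and other adhesion sites, had 16, 0 and 6 counts in WT and 63, 107 and 21 counts in sST2-KO, a log2 change of 2.98 (edgeR adjusted p = 0.435, SE 1.02) and of 2.50 without that library. Of the genes outside the named classes, Col28a1, which is found around peripheral nerve, had a log2 change of 0.35 (SE 0.29) and Col26a1 had at most 18 counts in a library.

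The makeup of the collagen sum differed between the groups. Fibrillar chains made up 68.2%, 58.7% and 64.8% of the summed level per length in WT and 55.0%, 55.4% and 46.2% in sST2-KO. Basement membrane chains made up 14.6%, 21.7% and 17.5% in WT against 28.5%, 22.6% and 37.4% in sST2-KO. The groups did not overlap in either share, though WT replicate 2 and sST2-KO replicate 2 were close in the basement membrane share. Shares add to 100%, so the second is not independent of the first. Beaded-filament chains (9.76% to 11.7% in WT, 9.53% to 12.7% in sST2-KO) and FACITs (4.96% to 6.21% and 4.23% to 5.53%) kept overlapping shares. Col3a1 alone made up 31.5%, 22.1% and 27.3% of the sum in WT and 18.6%, 18.9% and 15.3% in sST2-KO. The shares, and the ratios below other than those of Col3a1 to the type I chains, were chosen after the data had been seen and carry no test.

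**Figure D3:**
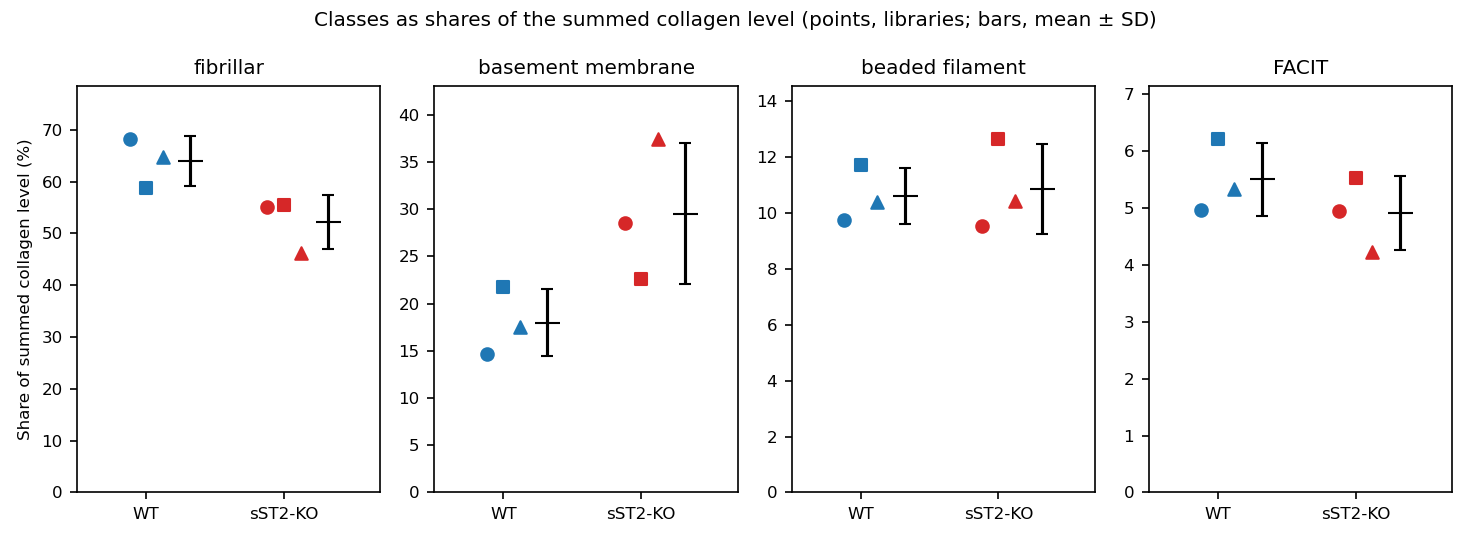
Share of the summed collagen level per length, in percent, held by 4 classes in each library (blue, WT; red, sST2-KO; circle, square and triangle for replicates 1, 2 and 3), with mean and SD beside the points and each axis starting at 0. Fibrillar shares are 58.7% or more in WT and 55.4% or less in sST2-KO, and the shares of beaded-filament and FACIT chains overlap. The fibrillar share includes Col3a1, the most abundant member, in which much of its difference between the groups lies.

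Ratios between chains inside a library do not depend on how libraries are scaled. Type III to type I is the ratio of the main fibril chains of arteries. Col3a1 to Col1a1, per length, was 1.97, 1.45 and 1.55 in WT against 1.05, 1.10 and 1.27 in sST2-KO, a difference of -0.53 in mean log2 with no overlap (exact two-sided permutation test, p = 0.1, the smallest possible). Against Col1a2 in place of Col1a1 the ratio was 2.56, 1.65 and 2.32 in WT against 1.69, 1.69 and 1.41 in sST2-KO. There WT replicate 2 fell among the sST2-KO libraries, and the difference was -0.43 (exact p = 0.3). Of 14 ratios computed these 2 were tested, and the rest are given as values alone.

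Col1a1 to Col1a2, whose products assemble in a fixed proportion, ranged from 1.14 to 1.50 in WT and from 1.11 to 1.60 in sST2-KO. Col5a1 to Col5a2 was 0.452 to 0.697 in WT and 0.762 to 0.867 in sST2-KO, without overlap. Col6a3 to Col6a1 was 0.335 to 0.424 in WT and 0.289 to 0.301 in sST2-KO, also without overlap, and Col6a1 to Col6a2 was 2.20 to 2.32 and 1.96 to 2.14. Col4a1 to Col3a1 showed the widest gap of the 14, with 0.129, 0.225 and 0.160 in WT against 0.467, 0.269 and 0.488 in sST2-KO, a difference of 1.24 in mean log2. The groups overlapped for Col5a1 and Col5a2 to Col1a1, Col4a3 to Col4a4, Col8a1 to Col8a2 and Col18a1 to Col15a1.

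**Figure D4:**
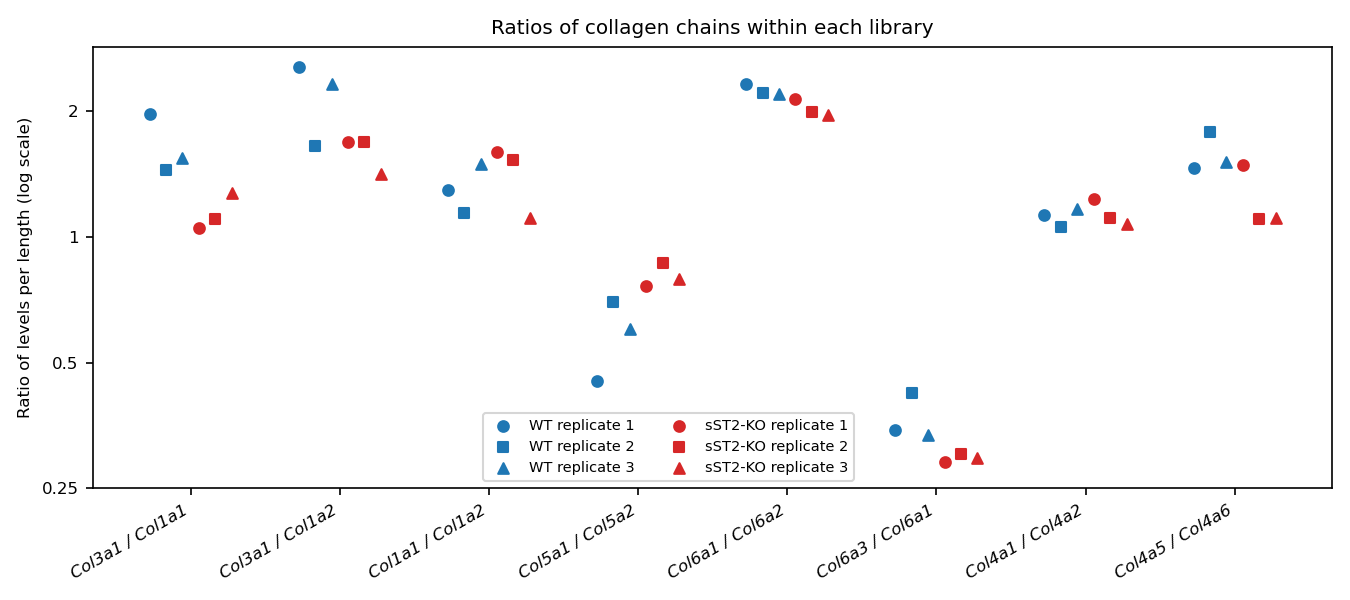
8 of the 14 ratios of levels per length between collagen chains in each library, on a log axis (blue, WT; red, sST2-KO; shapes, replicates). Of those shown, the groups separate for Col3a1 to Col1a1, Col5a1 to Col5a2, Col6a1 to Col6a2 and Col6a3 to Col6a1, and Col4a1 to Col4a2 stays between 1.06 and 1.24 in all 6 libraries.

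Markers of adventitial fibroblasts, the main makers of fibrillar collagen, were lower in the same libraries. Of 10 markers, all tested, 9 had negative log2 changes (46.5% of all tested genes were negative). For 5 the groups separated, all lower in sST2-KO (10.0% of all tested genes). The sum of the 10 markers was 5103, 7102 and 5039 CPM in WT and 3870, 3856 and 2918 CPM in sST2-KO. Per 1000 CPM of these markers, fibrillar collagen genes had 1696, 1318 and 1766 CPM in WT and 1595, 1173 and 1417 CPM in sST2-KO. Relative to the marker sum the groups thus overlapped. That sum rested largely on Dcn, with 2714, 4474 and 2674 CPM in WT and 1944, 1921 and 1334 CPM in sST2-KO. Without Dcn the marker sum was 2389, 2628 and 2366 CPM in WT and 1926, 1936 and 1584 CPM in sST2-KO. The fibrillar values relative to that smaller sum are not given here, so the overlap holds for the sum with Dcn alone. Col3a1 had 811, 514 and 782 CPM per 1000 CPM of markers in WT and 576, 425 and 485 CPM in sST2-KO, which also overlap. Set against the mean log2 level of the markers, which gives each marker equal weight, Col3a1 was 4.12, 3.64 and 3.99 log2 units higher in WT and 3.53, 3.16 and 3.21 units higher in sST2-KO, without overlap. Macrophage markers were lower too, with all 8 log2 changes negative (46.5% of all tested genes were negative) and a median of -1.19, against -0.51 for the fibroblast markers. For 7 of the 8 the groups separated, all lower in sST2-KO (10.0% of all tested genes). The sum of the macrophage markers was 1016 to 1221 CPM in WT and 499 to 752 CPM in sST2-KO. Smooth muscle markers overlapped, with 2 negative and 6 positive log2 changes. The part of cell composition in the collagen values was not tested.

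Collagen chains are modified, folded, exported, trimmed and crosslinked by a dedicated set of proteins, and 55 genes of these steps, of collagen receptors and of collagen breakdown were examined beside them. Of 54 tested, 0 were called by edgeR and 1 was called lower by DESeq2, which called 1.60% of all genes lower. Log2 changes were negative for 43 (79.6%, against 46.5% of all tested genes), with a median of -0.32. The groups separated for 18 lower genes (33.3%, against 10.0% of all tested genes) and 1 higher gene (against 9.09%). The lists were chosen with earlier results of these data known, so these shares describe the lists and test nothing. Genes of hydroxylation and folding had a median of -0.11 over 18. Of these 14 were negative (77.8%), and 3 separated the groups downward (16.7%) and none upward: Plod2, Fkbp14 and P4ha3, a prolyl hydroxylase subunit with a log2 change of -1.21 (SE 0.51). Serpinh1, the collagen chaperone HSP47, was the most abundant of them, with 177 to 208 CPM per kb in WT and 128 to 216 CPM per kb in sST2-KO. Plod2, the lysyl hydroxylase for telopeptides, had 17.4, 31.2 and 17.3 CPM per kb in WT and 10.5, 8.66 and 13.2 CPM per kb in sST2-KO, a log2 change of -1.03 (edgeR adjusted p = 0.416, SE 0.29). The prolyl isomerase gene Fkbp14 had one of -0.73 (SE 0.27), and -0.39 without WT replicate 2.

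Export genes also centred near 0, with a median of -0.076 over 8 and no gene past an unadjusted p of 0.05. Sar1b, a GTPase of transport vesicles, was the most abundant (35.7 to 37.7 CPM per kb in WT, 32.9 to 52.3 CPM per kb in sST2-KO), and Sec23a, a coat protein of these vesicles, had a log2 change of -0.56 (SE 0.30), and -0.16 without WT replicate 2. Propeptide removal and crosslinking leaned lower. In the former list 5 of 7 tested genes separated the groups downward and 1 upward (10.0% and 9.09% of all tested genes), with a median of -0.42. Pcolce, the enhancer of procollagen C-proteinase, had 60.5, 74.9 and 67.5 CPM per kb in WT and 56.2, 52.4 and 38.8 CPM per kb in sST2-KO, and the N-proteinase gene Adamts3 had a log2 change of -1.21 (SE 0.43). Of the lysyl oxidases, which crosslink fibrils, Loxl2 had 10.4, 23.0 and 11.7 CPM per kb in WT and 9.40, 8.93 and 6.01 CPM per kb in sST2-KO (log2 change -0.89, SE 0.34; -0.47 without WT replicate 2). Loxl3 had a log2 change of -0.47 (SE 0.20), and the most abundant member, Loxl1, had one of -0.064 (SE 0.26) with overlapping groups.

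Among receptors, Lair1, an inhibitory collagen receptor of leukocytes, was the gene called by DESeq2 (adjusted p = 0.000596). It had 4.84, 4.04 and 4.49 CPM per kb in WT and 2.38, 1.71 and 1.58 CPM per kb in sST2-KO, a log2 change of -1.24 (edgeR adjusted p = 0.330, SE 0.22). Its log2 change was close in size to the median of the macrophage markers, -1.19. The part of macrophages in the Lair1 values was not tested. Ddr2, the collagen receptor kinase of fibroblasts, had a log2 change of -0.78 (SE 0.33), and the integrin subunit Itgb1, the most abundant receptor gene, one of -0.32 (SE 0.34). Without WT replicate 2 these were -0.34 and 0.039. Genes of collagen breakdown had a median of -0.73 over 6, and 4 of them separated the groups, all lower in sST2-KO (10.0% of all tested genes). Ctsk, a collagen-cutting cathepsin, had 76.8, 56.1 and 65.4 CPM per kb in WT and 49.5, 39.5 and 32.6 CPM per kb in sST2-KO (log2 change -0.71, SE 0.21). The gelatinase Mmp2 had 57.6, 45.5 and 56.5 CPM per kb in WT and 34.7, 35.6 and 24.1 CPM per kb in sST2-KO (log2 change -0.76, SE 0.22, edgeR adjusted p = 0.416). In this list Mmp9 had a positive log2 change (0.29) and Mmp14 one of -0.091, both with overlapping groups.

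**Figure D5:**
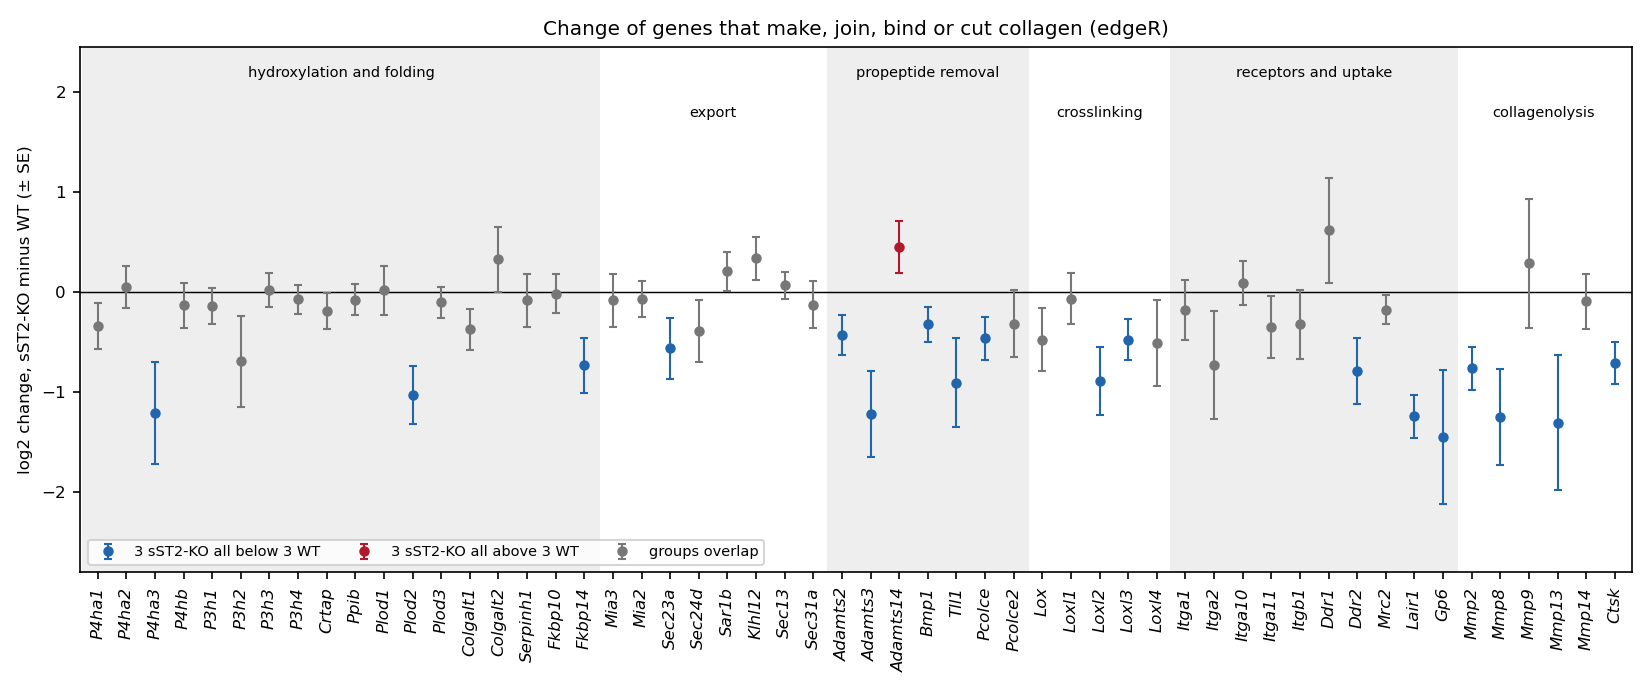
Log2 change (sST2-KO minus WT, edgeR, with SE) of the 54 tested genes of collagen modification, export, propeptide removal, crosslinking, reception and breakdown, in the order of the lists. Blue marks the 18 genes whose 3 sST2-KO libraries all lie below the 3 WT libraries, red the 1 gene all above, and grey those that overlap.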

How the data were processed

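Per the labels' protocols, RNA from aortas was extracted with TRI Reagent, poly-A selected and primed with random hexamers. For 6 libraries the authors deposited unnormalized gene counts, with a length per gene, per the file headers, and other gene annotation. The build was mm39, per the submitters' processing notes. Aligner, counter, strand setting and annotation release: not given in the sources used here. Libraries were grouped by their titles, and columns were matched by library name. The replicates are separate mice by the design text.

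Genes passed filterByExpr (minimum count 10, minimum total 15) in edgeR 4.0.16 (R 4.3.3), sizes were scaled by TMM, and groups were compared with the quasi-likelihood test (glmQLFit, glmQLFTest), adjusted by Benjamini-Hochberg over all 16377 genes at 0.05. SEs of log2 changes were computed as the absolute change over the root of F. DESeq2 1.42.0 and limma 3.58.1 were alternatives, with RLE scaling, other filters, protein-coding genes alone, mitochondrial genes left out, a replicate block and libraries left out. Single values per library had exact permutation tests. The edgeR step was also run on simulated counts, and how many changed genes it recovered there is not reported here. The counts of a pair of libraries differed by at least 6.55 times counting noise (median squared difference), so none was counted as a repeat of another. A count of 3 equals 0.148 to 0.239 CPM.

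The members and lists were chosen with earlier results of these data known. Per class the 3 most abundant members and up to 3 with the lowest p were described in full, per pathway list the most abundant gene and up to 2 with the lowest p; other genes were named to account for the members. Plots were drawn with matplotlib 3.10.9.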

Additional observations from a re-analysis of the deposited data

How the results depend on the processing

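The calls depended on the test. EdgeR called 0 collagen genes and 0 pathway genes with all libraries, with RLE scaling, other filters, protein-coding genes alone, mitochondrial genes left out, without each library in turn and without WT replicate 3 and sST2-KO replicate 2 together; limma-voom also called 0. DESeq2 called 6 collagen genes and 1 pathway gene, and limma-voom with sample quality weights 1 collagen gene and 0 pathway genes; the cause was not tested. With the replicate number as a block, 0 collagen and 0 pathway genes were called, and the sum and the ratio of Col3a1 to Col1a1 kept their differences of -0.57 and -0.53 (exact p = 0.25 each, the smallest that 3 pairs can give). Deviations of same-numbered libraries correlated at 0.15, 0.046 and -0.087, and not every library correlated best with its own number, so the numbers were not taken as pairs. Leaving out single libraries gave -0.71 to -0.47 for the collagen sum, -0.62 to -0.40 for the ratio of Col3a1 to Col1a1, -0.41 to -0.15 for the median of the collagen genes and -1.09 to -0.11 for the log2 change of Il1rl1. Among genes named by the rule, log2 changes that reversed from negative were 0.081 for Col4a4, 0.055 for Loxl1 and 0.019 for Itgb1 with quality weights, and 0.17 for Serpinh1 and 0.18 for Loxl1 without WT replicate 3 and sST2-KO replicate 2; the cause was not tested. Quality weights also reversed the other collagen genes Col4a3 (0.60), Col4a5 (0.14), Col9a2 (-1.49) and Col27a1 (-0.13), and the pathway genes Fkbp10, Sec31a, Pcolce2, Itga1 and Ddr1. Leaving out single libraries gave -0.55 to 0.099 for Col4a4, -0.20 to 0.13 for Loxl1, -0.48 to 0.039 for Itgb1, -0.20 to 0.32 for Col4a2, -0.23 to 0.39 for Col4a1, -0.22 to 0.12 for Serpinh1 and -0.059 to 0.53 for Col18a1. Alternatives for the median, for Il1rl1 and for single genes, and the block for the sum, were chosen after seeing the data. With 3 libraries a group, exact tests cannot go below 0.1.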
